A study of Mus musculus with 3 samples.

Results

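The corneal epithelium of the mouse iridocorneal angle and limbus was described from the cells that carry the authors' cluster label 5. These were 1350 of the 26008 kept cells, with 575 and 505 in control replicates 1 and 2 and 270 in *Angpt1*ΔNC. Single-cell libraries were made with the 10x Genomics droplet platform, and the values used here are counts of unique molecular identifiers (UMIs), which count transcripts rather than amplified copies. Control mice were *Angpt1* flox/flox and *Angpt1*ΔNC mice were *Angpt1* flox/flox;Wnt1Cre+, so both groups carry the floxed allele and the Cre is the labelled difference. Wnt1-Cre acts in the neural crest, which forms the stroma beneath the corneal epithelium but not this surface epithelium itself. All animals were 6 weeks old, of mixed strain, and bred for 2 generations onto albino ICR mice, and each library pooled 4 to 6 eyes of 2 to 3 mice. The library is therefore the replicate, with 2 control libraries and 1 *Angpt1*ΔNC library. The cornea had been cut away just in front of the limbus, so these cells are the peripheral corneal epithelium left on the dissected ring, and how much was left cannot be told apart from the group.

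The corneal epithelium is a stratified layer renewed from stem cells of the limbus, whose daughters move toward the centre of the cornea and upward to the surface. Basal cells hold keratins 5 and 14, and commitment to the corneal fate brings keratin 12, the keratin particular to this tissue, which pairs with keratin 3 or, in the mouse, with keratin 5. The cells also store very large amounts of a few soluble enzymes, among them the aldehyde dehydrogenase ALDH3A1 and transketolase, called corneal crystallins. The limbus keeps keratin 15, and the conjunctiva on its outer side holds keratins 4, 13 and 19 with membrane mucins.

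The label was checked against 4 markers fixed for this tissue, and the cells carried all of them. *Krt12* encodes keratin 12 (chromosome 11, 99415666 to 99422259, minus strand, build GRCm38), *Aldh3a1* the crystallin enzyme (chromosome 11, 61207537 to 61218421, plus strand), *Aqp5* a water channel of surface epithelia (chromosome 15, 99590782 to 99594829, plus strand) and *Slurp1* a secreted Ly6 protein (chromosome 15, 74724318 to 74728034, minus strand). A *Krt12* UMI was found in 575 of 575, 505 of 505 and 270 of 270 cells of control replicate 1, control replicate 2 and *Angpt1*ΔNC. The mean level of *Krt12*, taken over cells as UMIs per 10,000 UMIs of the cell, was 168 and 128 in control replicates 1 and 2 and 122 in *Angpt1*ΔNC. Outside the cluster, the highest *Krt12* level of any of the other 34 labels was 26.0, in the conjunctival epithelium of control replicate 2. *Aldh3a1* averaged 105, 99.8 and 74.2 UMIs per 10,000 in the same order, and its highest level elsewhere was 27.1, in the stromal label TM1 of control replicate 2. Ranked by ratio to all other kept cells, the leading genes of the cluster were *Krt12*, *Lypd2*, *Aldh3a1*, *Slurp1* and *Aqp5*. *Aqp5* was less particular, since the conjunctival cells of control replicate 1, at 11.01, lay above the corneal cells of *Angpt1*ΔNC. Since the cells were clustered on these genes, the ranks describe the label and test nothing.

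**Figure D1:**
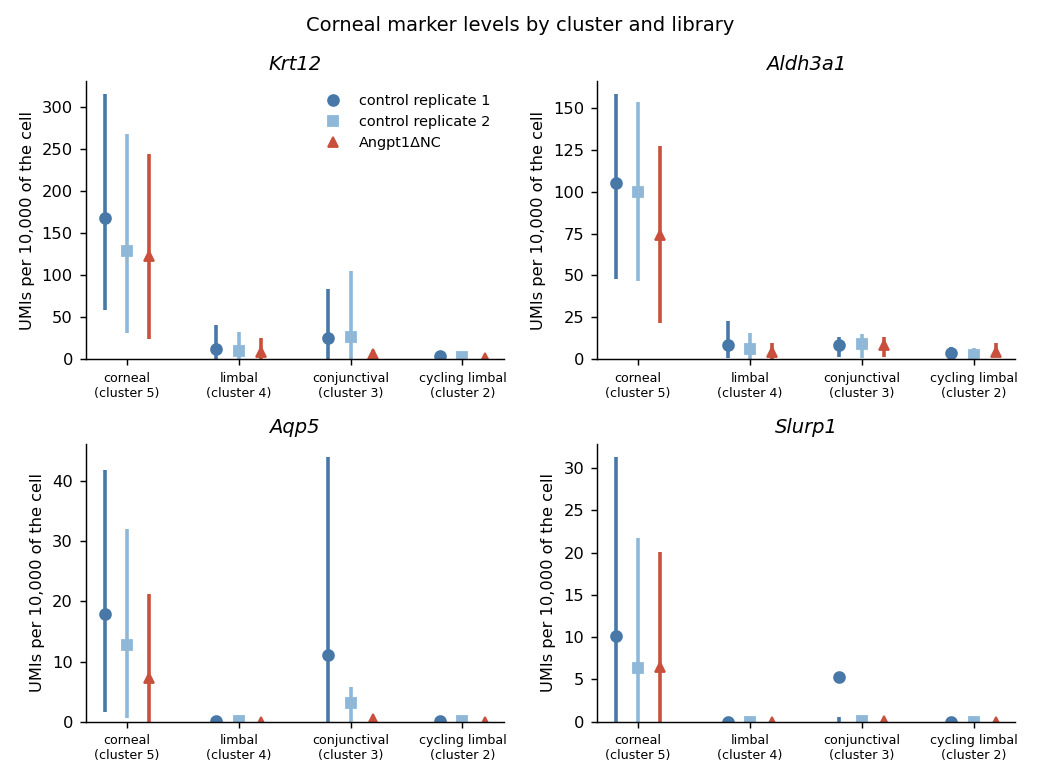
Level of 4 corneal markers (UMIs per 10,000 UMIs of the cell) in clusters 5, 4, 3 and 2 of the 3 libraries. Points are means over cells and bars span the 10th to the 90th percentile of cells. In cluster 5 *Krt12* averaged 168, 128 and 122, against 11.4 or less in limbal cluster 4.

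Cells differed widely within the cluster. In control replicate 1 the 10th percentile of *Krt12* was 58.4 and the 90th 315 UMIs per 10,000, in control replicate 2 they were 31.3 and 267, and in *Angpt1*ΔNC 23.4 and 244. *Aqp5* was more uneven, with medians of 11.5, 6.69 and 2.29 below its means of 17.9, 12.7 and 7.23. An *Aqp5* UMI was found in 95.7% of cells (exact 95% confidence interval (CI) 93.6 to 97.2) of control replicate 1, 92.7% (90.04 to 94.8) of control replicate 2 and 75.9% (70.4 to 80.9) of *Angpt1*ΔNC. These intervals cover counting error only. After thinning each cell to 5000 UMIs the shares were 89.1%, 81.0% and 58.9%, in the same order of libraries. *Slurp1* had a mean of 10.1, 6.35 and 6.52 and a UMI in 80.9%, 66.3% and 58.9% of cells. *Pax6*, the master transcription factor of the eye surface, was found at a low level of 0.313, 0.241 and 0.281. The 8 keratocyte and stroma markers summed to 0.985, 1.03 and 0.854 UMIs per 10,000, the 8 immune markers to 0.156, 0.223 and 0.122 with *Cd3e* and *Cd3g* at 0, and the goblet cell markers *Muc5ac*, *Tff1* and *Spdef* were at 0 in every library. A UMI of the stroma markers was nevertheless found in 45.2%, 55.2% and 61.9% of the cells, and the 9 red cell, lens and rod markers summed to 2.33 in control replicate 1 against 0.142 and 0.516.

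The start regions of *Krt12* and *Aqp5* are shown because these were the 2 of the 4 markers with an entry in the RefSeq promoter table (build GRCm38.p6), and because *Aqp5* was among the genes that followed *Krt12* most closely from cell to cell. Each window holds 250 bases before and 50 bases after the start given in that table, 5′ to 3′ on the gene's strand. Capitals mark the letters CACCC or GGGTG, its complement read on the other strand, and TATAAA. The *Krt12* window lies at chr11:99422210-99422509 on the minus strand and the *Aqp5* window at chr15:99590778-99591077 on the plus strand. The *Aqp5* gene range given above begins at 99590782, so most of this window lies inside that range. The annotations thus place the *Aqp5* start differently, and its window may not hold the sequence before the gene.
Krt12: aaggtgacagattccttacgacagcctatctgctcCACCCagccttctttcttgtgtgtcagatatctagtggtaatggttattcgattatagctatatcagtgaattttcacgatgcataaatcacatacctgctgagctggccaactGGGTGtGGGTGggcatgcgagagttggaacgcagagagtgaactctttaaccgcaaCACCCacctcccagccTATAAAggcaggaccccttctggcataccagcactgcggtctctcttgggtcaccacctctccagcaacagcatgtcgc
Aqp5: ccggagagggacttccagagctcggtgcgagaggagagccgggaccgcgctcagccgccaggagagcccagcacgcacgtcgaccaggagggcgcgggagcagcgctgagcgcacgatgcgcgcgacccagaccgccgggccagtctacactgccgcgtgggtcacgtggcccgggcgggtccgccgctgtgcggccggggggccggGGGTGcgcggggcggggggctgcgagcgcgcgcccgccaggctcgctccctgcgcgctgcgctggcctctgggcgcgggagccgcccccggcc

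CACCC, counted on both strands, occurred 4 times in the *Krt12* window and 1 time in that of *Aqp5*, and it is found in 57.5% of all 32851 windows of the table. It is the core of the sites that Krüppel-like factors, among them KLF4 and KLF5 of the corneal epithelium, are known to bind. TATAAA occurred 1 time in the *Krt12* window and not in that of *Aqp5*, and in 13.6% of all windows. Of the 10 genes that went with *Krt12* most closely, 5 had a window, of which 4 held CACCC and 0 held TATAAA. *Klf4* was at 6.30, 3.77 and 4.73 UMIs per 10,000 and *Klf5* at 4.27, 3.96 and 3.34 in control replicate 1, control replicate 2 and *Angpt1*ΔNC. A match is only a run of letters and was not tested as a binding site.

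The cluster was set beside the limbal (cluster 4), conjunctival (cluster 3) and cycling limbal (cluster 2) epithelium. Of the 1046 genes with at least 1 UMI per 10,000 in the corneal cells of every library, 19 were more than 2-fold above all 3 neighbours in every library, counted after adding 0.1 to each level. The 10 with the largest ratio were *Mmp13*, *Mmp10*, *Mgarp*, *Nppb*, *Aldh3a1*, *Tkt*, *Gyg*, *Krt12*, *Uap1* and *Mxra7*. *Mmp13*, which encodes a collagenase, was at 5.25, 2.59 and 2.12 UMIs per 10,000, and its highest level in the other 3 clusters was 0.183. *Mgarp*, for a mitochondrial protein of the cornea, was at 39.8, 37.9 and 23.7, against 3.94 or less. *Tkt*, for transketolase, was at 46.7, 39.3 and 27.4, against 6.79 or less. *Gyg*, for the primer protein of glycogen, was at 4.55, 2.92 and 1.70, against 0.394 or less. The corneal set thus held metabolic enzymes and secreted proteases beside the keratin.

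Genes low in the corneal cells included 4 keratins, among them the simple epithelial *Krt7*, *Krt8* and *Krt18*. Of 832 genes with at least 1 UMI per 10,000 in the neighbouring clusters of every library, 9 were more than 2-fold below all 3 in every library. *Wfdc18*, for a secreted protein of the whey acidic family, was at 0.0399, 0.245 and 0.234 UMIs per 10,000 in corneal cells and at 9.75, 18.4 and 7.46 in limbal cells. *Krt7* was at 0.0161, 0.0245 and 0.187 in corneal and at 1.73, 1.74 and 1.58 in limbal cells. *Krt8* (0.0497, 0.295 and 0.408), *Krt18* (0.243, 0.601 and 0.873) and *Krt17* (20.2, 19.2 and 19.4) were lower in corneal cells than in each neighbouring cluster of every library.

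Within the cluster the cells formed a graded order along *Krt12*. Cells were thinned to 5000 UMIs, which left 562, 499 and 263 cells, and the Spearman correlation with *Krt12* was taken over cells for 1045 genes in each library as a description. *Lypd2*, a Ly6 family gene, had the highest correlation in every library at 0.72, 0.77 and 0.81. *Aqp5* followed at 0.70, 0.76 and 0.77, then *Gsta4*, a glutathione transferase of lipid aldehydes, at 0.67, 0.69 and 0.70 and *Mgarp* at 0.67, 0.67 and 0.65. *Upk3bl*, *Mal*, *Krt5*, *Perp*, *Slurp1* and *Calml3* completed the 10 highest, with correlations from 0.55 to 0.71. *Krt5* encodes the known partner of keratin 12 in the mouse, *Perp* a desmosome protein and *Calml3* a calmodulin-like protein of epithelia.

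The opposite end held *Apoe* at -0.53, -0.64 and -0.53 and *Gpha2*, a hormone subunit gene known from quiescent limbal cells, at -0.48, -0.64 and -0.62. The ribosomal protein genes *Rpl13*, *Rps3a1* and *Rpl23* completed the 5 lowest, with correlations from -0.51 to -0.46. The points are cells of the same library thinned to the same depth, so that a gene as abundant as *Krt12* takes UMIs from the others. Thinned to 2000 UMIs, the correlations moved toward 0 and *Lypd2* and *Aqp5* kept the first and the next place.

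**Figure D2:**
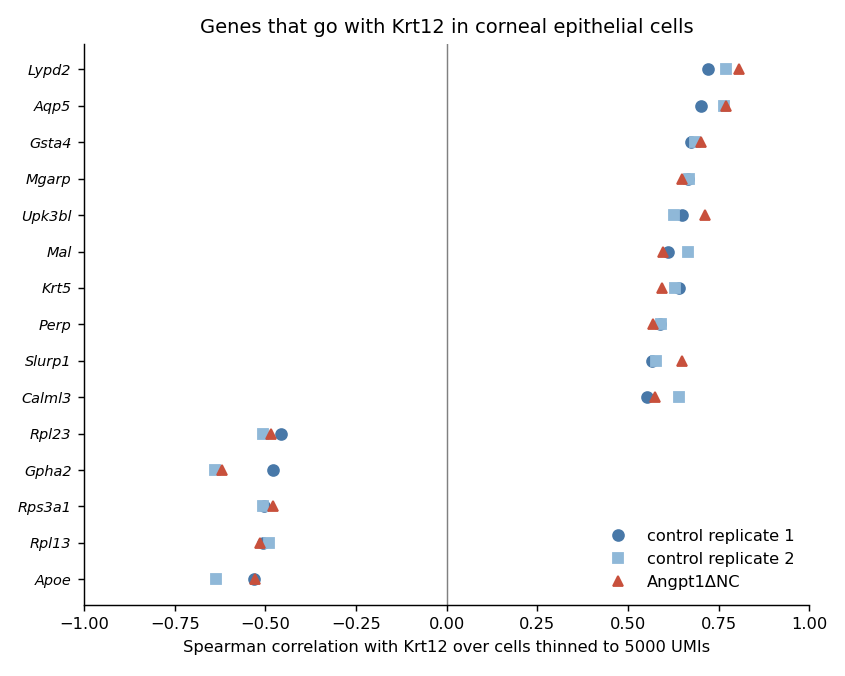
Spearman correlation with *Krt12* over corneal epithelial cells thinned to 5000 UMIs (x axis, no unit) for the 10 genes with the highest and the 5 with the lowest value, in 3 libraries. The 3 libraries lie close together for each gene, with *Lypd2* at 0.72 to 0.81 and *Apoe* at -0.64 to -0.53.

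The libraries differed in sex and in how much epithelium they held, which stands before any comparison of genotype. The labels state that male and female mice were pooled, but no *Xist* UMI was found in the corneal cells of either control, while 157 of 270 cells of *Angpt1*ΔNC held *Xist*. A UMI of a Y-linked gene was found in 87.5%, 86.7% and 41.5% of the cells. Sex and genotype therefore cannot be told apart across all cells, and results were also taken over the 503, 438 and 96 male-typed cells, in which a Y-linked transcript but no *Xist* was detected. Corneal cells were deep, with a median of 21528, 18747 and 20189 UMIs, and mitochondrial transcripts made up 1.90%, 2.47% and 3.16%. Between 13 and 25 barcodes were shared by the kept cells of 2 libraries, and 0 within this cluster.

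Corneal epithelial cells were 6.34% (95% CI 5.84 to 6.86) of the kept cells of control replicate 1, 4.97% (4.56 to 5.41) of control replicate 2 and 3.99% (3.53 to 4.48) of *Angpt1*ΔNC. Among the surface epithelial cells of clusters 2 to 5 they were 50.3% (47.4 to 53.2), 43.8% (40.9 to 46.7) and 23.04% (20.7 to 25.6). The limbal cluster made up 36.2%, 44.0% and 54.7% of these cells, and the conjunctival cluster 8.57%, 8.67% and 16.4%. Clusters 2 to 5 together made up 12.6%, 11.3% and 17.3% of the kept cells. Both controls lay above *Angpt1*ΔNC in the share of cluster 5 and below it in the limbal and conjunctival shares. With 1 *Angpt1*ΔNC library no test of a share was made, and the width of the dissected ring cannot be told apart from the genotype here.

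**Figure D3:**
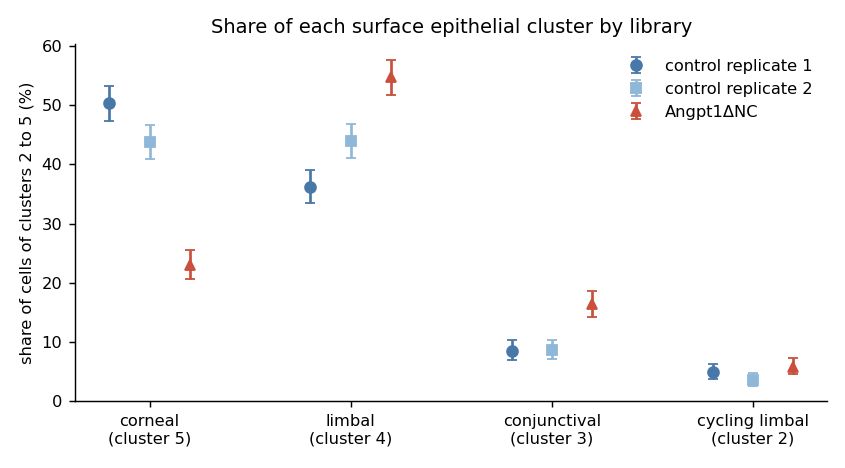
Share (%) of clusters 5, 4, 3 and 2 among the cells of these 4 clusters, by library, with exact 95% confidence intervals that cover counting error only. The corneal share was 50.3% and 43.8% in the controls and 23.04% in *Angpt1*ΔNC.

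The counts of the corneal cells were summed per library and compared between genotypes with edgeR's quasi-likelihood test. Of 11365 genes tested, 253 (2.23%) had a Benjamini-Hochberg adjusted p under 0.05, 143 of them higher (1.26%) and 110 lower (0.968%) in *Angpt1*ΔNC. The median log2 change of all genes was -0.02, and 2105 genes (18.5%) had an unadjusted p under 0.05. Of the 253 genes, 178 were also called with the same sign by the same test in limbal cells (cluster 4). The interaction test of corneal against limbal cells, given below, called 39 of the 253. The limbal sums came from the same 3 libraries, so the overlap with the limbal test is not independent. The share of all genes called in limbal cells is not given here. The spread in the corneal test came from the 2 controls alone (1 residual degree of freedom) and was taken to hold for *Angpt1*ΔNC as well. All log2 changes below are of these summed counts, with a standard error (SE), while levels are means over cells. Of 6 sex-linked genes, *Xist* and *Tsix* rose and *Eif2s3y* (0.621, 0.652 and 0.258) fell. The targeted gene could not be checked in this tissue, since *Angpt1* had 1, 4 and 0 UMIs in the corneal cells of the 3 libraries.

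The 4 genes that name the tissue did not pass the test by edgeR (list median -0.26, 1 with an unadjusted p under 0.05), and DESeq2 called *Aqp5* alone. *Krt12* changed by -0.09 ± 0.25 (log2 ± SE, adjusted p by edgeR 0.875), *Slurp1* by -0.23 ± 0.24 (0.641), *Aldh3a1* by -0.28 ± 0.22 (0.543) and *Aqp5* by -0.84 ± 0.22 (0.113). The levels of *Krt12*, *Aldh3a1* and *Aqp5* in *Angpt1*ΔNC were below both controls, that of *Slurp1* lay between them. Of the 10 genes highest over the neighbouring clusters, 9 had a level in *Angpt1*ΔNC below both controls, as had 48.1% of all genes tested, and 2 passed the test, both lower. *Nppb*, which encodes B-type natriuretic peptide, was at 6.22 and 3.27 UMIs per 10,000 in the controls and 1.03 in *Angpt1*ΔNC (log2 change -2.14 ± 0.33, edgeR adjusted p = 0.029). *Mxra7* was at 2.88 and 2.99 against 1.55 (-0.87 ± 0.16, edgeR adjusted p = 0.0488). Of the 10 genes lowest against the neighbours, 7 lay above both controls, as did 29.9% of all genes tested, and 3 passed the test, all higher: *Krt7*, *Tppp3* and *Csrp1*. *Csrp1*, a LIM domain protein of the actin cytoskeleton, was at 0.445, 0.516 and 1.28.

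By the fixed rule the leading higher genes were *Xist*, *Pglyrp1*, *Slc1a1*, *Rpl29*, *Lce3c*, *Ereg*, *Creb5*, *Tslp*, *Ifi204* and *Tpm3-rs7*. *Xist*, the RNA of the inactive X chromosome, was at 0, 0 and 6.59 UMIs per 10,000, at least 2501-fold higher in *Angpt1*ΔNC than 3 UMIs per control library would give. *Pglyrp1*, an antibacterial peptidoglycan recognition protein, was at 0.668, 0.620 and 3.07. It rose by 2.16 ± 0.14 on the log2 scale (edgeR adjusted p = 0.00266), and by 0.79 among male-typed cells (0.0386). *Slc1a1*, a glutamate and cysteine transporter, was at 0.552, 0.470 and 1.69, and rose by 2.02 ± 0.15 (edgeR adjusted p = 0.00287). *Ereg*, the EGF receptor ligand epiregulin, was at 0.161, 0.229 and 1.11, and rose by 2.38 ± 0.23 (edgeR adjusted p = 0.00686). *Tslp*, an epithelial cytokine that acts on dendritic cells, was at 0.593, 0.613 and 1.32 and rose by 1.37 ± 0.15 (edgeR adjusted p = 0.00843), with 51.3% of its *Angpt1*ΔNC UMIs in 10 cells. *Lce3c*, a cornified envelope gene, was at 0.237, 0.342 and 0.948 with 89.5% of its *Angpt1*ΔNC UMIs in 10 cells, and its direction turned among cells without a stromal UMI (log2 change -2.11, edgeR adjusted p = 0.0545). *Rpl29*, *Ifi204* and *Tpm3-rs7* have near-identical copies or close relatives in the genome, so reads may be split among them and their values are uncertain.

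The leading lower genes were *Gm10260*, *Gm11361*, *Ifi207*, *1600014C10Rik*, *Marcksl1*, *Dll1*, *Plk2*, *Cyr61*, *Cyp3a13* and *Gm10036*. *Gm10260* was at 11.1 and 14.3 UMIs per 10,000 in the controls and 0.0427 in *Angpt1*ΔNC, with 15109, 15829 and 26 UMIs in all. *Gm10260*, *Gm11361* and *Gm10036* are predicted genes and *Ifi207* a member of a cluster of close relatives, and their counts are uncertain for that reason. *Cyr61*, the matricellular protein CCN1 and a known target of the YAP pathway, was at 14.7, 11.5 and 2.85 and fell by 2.06 on the log2 scale (SE 0.22, edgeR adjusted p = 0.00843). *Dll1*, a Notch ligand, was at 0.886, 0.909 and 0.276 and fell by 1.86 (SE 0.18, edgeR adjusted p = 0.00686). *Plk2*, a stress-induced kinase, was at 1.20, 0.957 and 0.217 and fell by 1.96 (SE 0.20, edgeR adjusted p = 0.00761). *Marcksl1*, an actin regulator, was at 2.11, 1.81 and 0.605, and *Cyp3a13*, a cytochrome P450, at 1.07, 0.813 and 0.255. In all of these the *Angpt1*ΔNC level was below both controls.

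**Figure D4:**
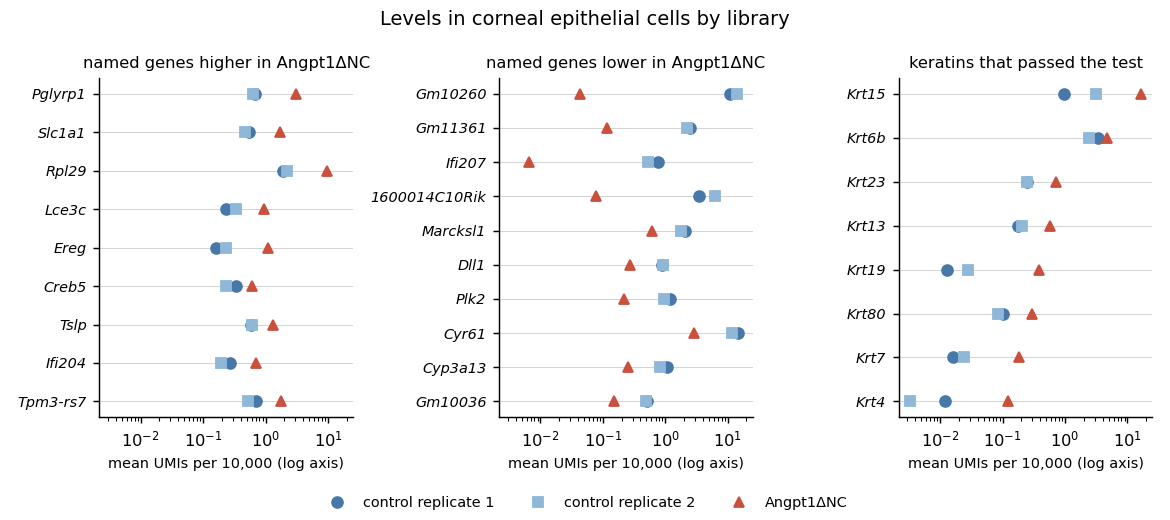
Mean level over corneal epithelial cells (UMIs per 10,000, log axis) of the named genes that were higher or lower in *Angpt1*ΔNC, without *Xist*, and of the keratins that passed the test, one point per library. The *Angpt1*ΔNC point lies outside the range of both controls for every gene shown, for example *Cyr61* at 2.85 against 14.7 and 11.5.

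Of 21 keratin genes listed, 19 passed the filter on low counts, 8 rose and 0 fell, and the list had a median log2 change of 0.89. The risen members were not the abundant ones. Among male-typed cells *Krt7* (edgeR adjusted p = 0.152), *Krt6b* (0.331) and *Krt80* (0.181) were not called, and among cells without a stromal UMI *Krt4*, *Krt7*, *Krt13*, *Krt19* and *Krt6b* were not (0.0558 to 0.446), with *Krt19* at a log2 change of 1.91. *Krt15* rose by 3.36 ± 0.51 (edgeR adjusted p = 0.0272), from 0.978 and 3.13 to 16.5 UMIs per 10,000. *Krt19* rose by 4.01 ± 0.27 (0.00266) from 0.0130 and 0.0275 to 0.385, with 91.9% of its *Angpt1*ΔNC UMIs in 10 cells. *Krt4* was at 0.0118, 0.00334 and 0.122, *Krt7* at 0.0161, 0.0245 and 0.187, and *Krt13* at 0.180, 0.205 and 0.569. *Krt6b*, *Krt23* and *Krt80* also rose. *Krt6b* and *Krt80* lost the call after thinning and among cells without a *Krt4*, *Krt7*, *Krt13* or *Krt19* UMI, where the log2 change of *Krt6b* was 0.14. The structural keratins *Krt5* (40.7, 29.6 and 33.7), *Krt14* (82.9, 89.99 and 89.3) and *Krt17* did not pass the test, and neither did the wound keratins *Krt6a* (15.3, 13.0 and 20.9) and *Krt16* (44.8, 38.4 and 54.9).

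Of 7 conjunctival markers, all passed the filter and 5 rose (*Krt13*, *Krt4*, *Krt19*, *Krt7* and *Muc4*), with a median log2 change of 1.85, while *Krt8* and *Aqp3* did not pass the test. The summed level of the 7 was 11.6, 8.75 and 8.86 UMIs per 10,000, of which *Aqp3* alone gave 11.2, 8.14 and 6.82. A UMI of *Krt4*, *Krt7*, *Krt13* or *Krt19* was found in 12.2%, 13.9% and 39.3% of the corneal cells. In *Angpt1*ΔNC these cells had a median of 28212 UMIs, against 18569 for the cells without, and a *Krt12* level of 136 against 113. The controls showed the same order, with *Krt12* at 232 against 159 and at 177 against 120. In stromal cells (TM1 to TM11), which should lack these keratins, a *Krt7* UMI was found in 0.107%, 0.180% and 0.617% of cells at median depths of 5913, 6377 and 7494 UMIs, against 1.22%, 4.16% and 20% of corneal cells. Over the cells without these 4 keratins, 105 genes were called in place of 253, and *Muc4* changed by -0.22 (edgeR adjusted p = 0.851). The part that doublets or more conjunctival cells in this library had in the result was not tested. Goblet cell genes were absent apart from *Agr2*, which rose by 2.49 ± 0.38 (edgeR adjusted p = 0.0272).

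*Krt15*, the keratin of limbal basal cells, was found in more corneal cells of *Angpt1*ΔNC than of either control. A UMI was detected in 23.7% (95% CI 20.2 to 27.3) and 43.6% (39.2 to 48.0) of control cells and in 77.4% (71.9 to 82.3) of *Angpt1*ΔNC cells. Its limbal level was 25.4, 21.8 and 22.9 UMIs per 10,000, so that the 3 libraries lay closer together in limbal than in corneal cells. It was highest in the conjunctival cells, at 81.1, 108.4 and 121.9. Corneal cells were then grouped by their *Krt12* level. Below 50 UMIs of *Krt12* per 10,000, *Krt15* averaged 1.21, 5.90 and 15.3 over 44, 97 and 75 cells. From 50 to 150 it averaged 1.43, 3.07 and 17.9 over 255, 250 and 109 cells, and above 150 it averaged 0.526, 1.53 and 15.7 over 276, 158 and 86 cells. The *Angpt1*ΔNC means were carried by a minority of cells. The median over all its corneal cells was 4.26, and the cells with a *Krt4*, *Krt7*, *Krt13* or *Krt19* UMI averaged 31.0 against 7.11 in the rest. Over the cells without these keratins, *Krt15* averaged 12.4, 6.35 and 2.61 along the 3 *Krt12* groups in *Angpt1*ΔNC, against 5.996, 2.40 and 0.450 in control replicate 2 and 1.07, 1.06 and 0.370 in control replicate 1. It was thus lowest in the cells richest in *Krt12* in each library, and highest in *Angpt1*ΔNC in each group.

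*Gpha2* and *Krt14*, the other limbal and basal genes grouped in this way, were lowest in the cells richest in *Krt12*. *Gpha2* went from 11.5 to 0.898, from 28.9 to 2.03 and from 15.2 to 1.20 UMIs per 10,000, and *Krt14* from 92.6 to 72.9, from 124 to 55.9 and from 108 to 62.3. Of the 9 limbal and basal markers, all passed the filter, 2 rose (*Krt15* and the P-cadherin gene *Cdh3*) and 0 fell, with a median log2 change of 0.11. *Cdh3* was not called by DESeq2 (adjusted p = 0.259), nor by edgeR with equal cells, thinned cells, male-typed cells or either reduced set of cells (adjusted p from 0.0563 to 0.176). Stromal cells held *Krt15* at 0.0497, 0.0388 and 0.160 UMIs per 10,000, and endothelial cells at 0.0133, 0.0246 and 0.1845. Both kinds of cell were highest in *Angpt1*ΔNC, and the part of free RNA in this was not tested. The rise of *Krt15* was 2.84 among male-typed cells (edgeR adjusted p = 0.0110) and 2.20 among cells without conjunctival keratins (0.114), and DESeq2 gave an adjusted p of 0.156. It was 2.78 without control replicate 1 and 4.34 without control replicate 2.

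**Figure D5:**
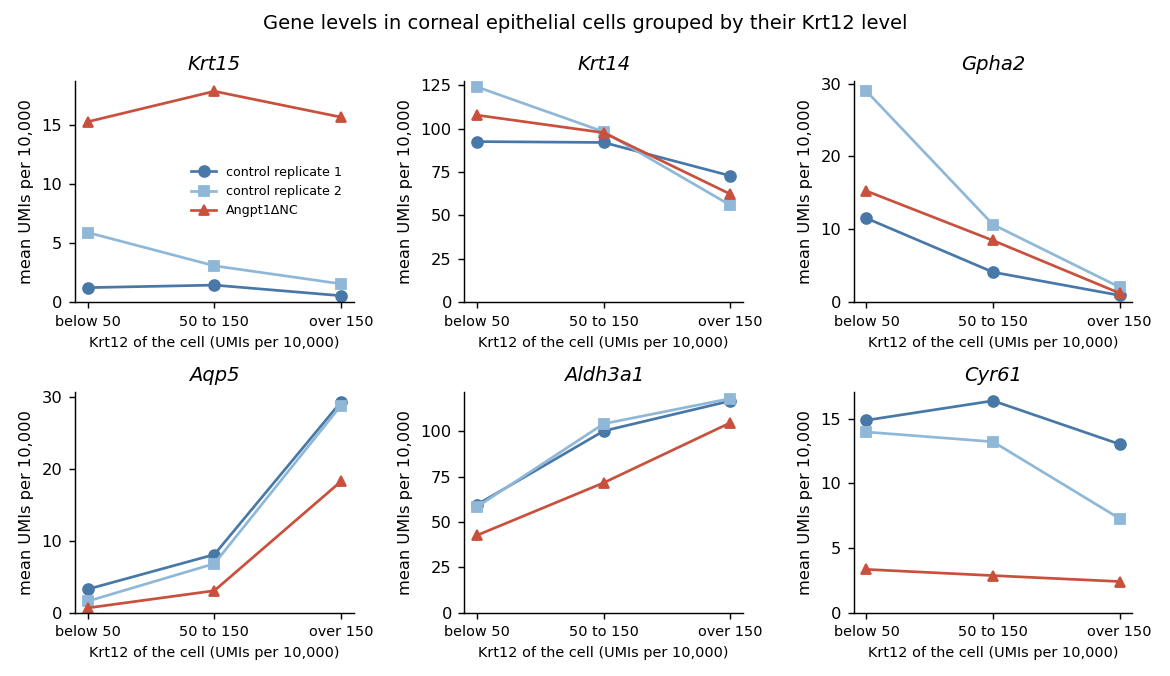
Mean level (UMIs per 10,000) of 6 genes in corneal epithelial cells grouped by their *Krt12* level (x axis, UMIs per 10,000), by library. *Krt15* lay at 15.3, 17.9 and 15.7 in *Angpt1*ΔNC and at or below 5.90 in the controls, while *Aqp5* and *Aldh3a1* rose and *Gpha2* fell along *Krt12* in each library.

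*Aqp5* and *Aldh3a1* followed *Krt12* upward in each library and stayed lower in *Angpt1*ΔNC at matched *Krt12*. Above 150 UMIs of *Krt12* per 10,000, *Aqp5* averaged 29.3, 28.8 and 18.3, and between 50 and 150 it averaged 8.09, 6.81 and 3.05. *Aldh3a1* averaged 117, 118 and 105 in the upper group and 100 to 104 in the controls against 71.7 in the middle group. These are values of cells of 1 library against 2, with no test.

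Growth factor genes moved in both directions. Of 15 genes of the EGF receptor pathway, 14 passed the filter, 1 rose (*Ereg*) and 2 fell, with a median log2 change of -0.15. *Hbegf*, the heparin-binding ligand that drives corneal wound closure, was at 16.5, 15.6 and 6.31 UMIs per 10,000 and fell by 1.22 (SE 0.18, edgeR adjusted p = 0.0255). *Spry2*, a feedback inhibitor of receptor signalling, was at 0.783, 0.883 and 0.465 and fell by 1.38 (SE 0.20, edgeR adjusted p = 0.0245). *Areg* (13.9, 15.3 and 5.90) did not pass the test. Among 17 Notch pathway genes, 11 passed the filter, *Dll1* fell and the target *Hes1* rose by 0.91 ± 0.16 (edgeR adjusted p = 0.0415), from 6.87 and 6.52 to 11.4, with a median of -0.02 over the list. None of 13 tested Wnt pathway genes was called by edgeR (median 0.13, 3 with an unadjusted p under 0.05 and 0 by DESeq2), and none of 10 tested angiogenic or antiangiogenic genes (median -0.27, 4 with an unadjusted p under 0.05 and 0 by DESeq2). *Flt1*, the decoy VEGF receptor of the clear cornea, was at 0.03, 0.12 and 0.20.

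Few transcription factors of the surface epithelium passed the test. All 23 listed genes passed the filter, and *Foxc1* (0.144, 0.162 and 0.323, log2 change 1.24 ± 0.18, edgeR adjusted p = 0.0258) and *Hes1* rose, with a median of 0.03 and 7 with an unadjusted p under 0.05. The call of *Foxc1* was lost with DESeq2 (adjusted p = 0.0565) and, by edgeR, in male-typed cells (log2 change 0.81, adjusted p = 0.112) and after thinning (0.186), and that of *Hes1* after thinning (0.0638). Both were also lost without stromal UMI cells (0.0602 and 0.116) and without conjunctival keratin cells (0.0574 for each). *Pax6*, *Klf4*, *Klf5*, *Ehf* and *Trp63* did not pass the test.

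The barrier genes showed few calls. Of 17 desmosome and adhesion genes tested, 1 rose (*Cdh3*, median 0.30), and of 16 tight and gap junction genes 1 rose (*Cldn1*, 0.985, 0.872 and 1.33, log2 change 0.79 ± 0.15, edgeR adjusted p = 0.0485, median 0.41). None of 15 basement membrane adhesion genes was called by edgeR (median -0.02, 5 with an unadjusted p under 0.05 and 0 by DESeq2). Of 16 tested genes of the cornified envelope, *Sprr2d* rose on 0, 2 and 26 UMIs, and the list's median was 0.30. Among Ly6 genes 1 of 12 rose (*Ly6e*, 0.661, 0.505 and 1.21), with a median of -0.50. *Lypd2* was at 41.7, 34.8 and 22.3 and did not pass the test. Among mucin and glycocalyx genes, 9 were tested, *Muc4* rose and *Muc15* (0.492, 0.339 and 0.158) fell, with a median of 0.15.

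Of 31 genes against aldehydes and oxidants tested 1 rose, *Aldh1a3*, which makes retinoic acid, from 2.52 and 2.11 to 5.00 (log2 change 1.33 ± 0.15, edgeR adjusted p = 0.0109), and the list's median was -0.19. Of the 31, 11 had an unadjusted p under 0.05, as had 18.5% of all genes. A level in *Angpt1*ΔNC below both controls was found for 22 of them, and for 48.1% of all genes tested. *Txn1* (30.8, 28.0 and 17.4) and *Prdx6* (12.7, 13.5 and 7.48) did not pass the test. Of 21 genes of water and solute transport 1 rose, the chloride channel gene *Clic4*, from 1.19 and 1.08 to 2.23, with a median of 0.07. None of 14 tested glycolysis genes was called by edgeR (median -0.06, 4 with an unadjusted p under 0.05 and 1 by DESeq2), nor any of 17 tested sterol and lipid genes (median -0.09, 0 with an unadjusted p under 0.05 and 0 by DESeq2).

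Wound and inflammation genes split. Of 20 tested, 3 rose (*Krt6b*, *Lcn2* and *Tslp*) and 1 fell, with a median of 0.35. An unadjusted p under 0.05 was found for 12 of them, and for 18.5% of all genes tested. *Lcn2*, the iron-sequestering antibacterial protein lipocalin 2, was at 0.130, 0.367 and 1.53 and rose by 2.76 ± 0.43 (edgeR adjusted p = 0.029), against 1.35 among male-typed cells (edgeR adjusted p = 0.136). DESeq2 did not call *Lcn2* (0.266), and its change was 2.21 without control replicate 1 and 3.58 without control replicate 2. *S100a8* was at 0.252, 0.356 and 0.0334 and fell by 3.63 (SE 0.27, edgeR adjusted p = 0.00287), while its partner *S100a9* was at 1.14, 1.45 and 1.13. Of 12 immediate early genes, which tissue dissociation induces, *Fos* alone passed the test and fell, from 4.11 and 2.64 to 1.28 (log2 change -1.59 ± 0.21, edgeR adjusted p = 0.0197). The median of the 12 was -0.58, and 10 had an unadjusted p under 0.05, against 18.5% of all genes tested. A level in *Angpt1*ΔNC below both controls was found for 11 of these 12, for 11 of 11 heat shock genes, and for 48.1% of all genes tested. None of 11 heat shock genes was called by edgeR (median -0.29, 5 with an unadjusted p under 0.05 and 0 by DESeq2), and none of 10 cell cycle genes (median 0.19, 1 with an unadjusted p under 0.05 and 0 by DESeq2).

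Of 18 interferon response genes tested, 15 were highest in control replicate 1, as were 47.6% of all genes tested. This was not particular to the interferon genes. Control replicate 1 was also highest for 17 of 17 sterol and lipid genes, 10 of 10 cell cycle genes and 13 of 15 MHC class I genes, but for only 3 of 19 keratins. *Irf7*, a transcription factor of this response, was at 1.28, 0.05 and 0.18 UMIs per 10,000, *Bst2* at 1.26, 0.07 and 0.25 and *Isg15* at 1.67, 0.28 and 0.44. An *Irf7* UMI was found in 37.7%, 10.3% and 28.5% of the cells. None of the 18 was called by edgeR (median -0.23, 3 with an unadjusted p under 0.05 and 0 by DESeq2). For the 3 genes named, *Angpt1*ΔNC lay between the controls. Among 15 genes of the MHC class I pathway 2 fell, *H2-Q6* (0.173, 0.125 and 0.00482) and *H2-Q7* (0.191, 0.202 and 0.0151), which have near-identical copies, and the list's median was -0.29. Of the markers of other cell types, *Ptgds* and the retinal pigment epithelium gene *Ttr* fell. *Ttr* was at 0.134, 0.112 and 0.0248 in corneal cells and at 0.229, 0.199 and 0.0271 in stromal cells, so that both kinds of cell were lowest in *Angpt1*ΔNC, and the part of free RNA in this was not tested. No marker of the corneal endothelium, vessels, pigment cells, immune cells, smooth muscle or red cells, lens and rods was called by edgeR among 25 tested (4 with an unadjusted p under 0.05 and 0 by DESeq2).

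Whether the corneal cells responded differently from their limbal neighbours was tested with an interaction term on the sums of both clusters, with the library as a term. This fit also left 1 residual degree of freedom. Of 11727 genes, 167 (1.42%) had an adjusted p under 0.05, with 118 (1.01%) more positive and 49 (0.418%) more negative in corneal cells. The 10 with the smallest p were *Wfdc18*, *Krt19*, *Krt7*, *Rgcc*, *Gphb5*, *BC100530*, *Krt4*, *Sgk1*, *Krt15* and *Krt13*. For *Krt15* the corneal change exceeded the limbal change by 3.45 ± 0.35 (log2 ± SE, edgeR adjusted p = 4.23e-06), for *Krt4* by 3.92 ± 0.37 (1.58e-06) and for *Krt7* by 3.61 ± 0.30 (7.39e-07). With RLE scaling the edgeR adjusted p was larger, at 0.00652 for *Krt15*, 0.00082 for *Krt4* and 0.000777 for *Krt7*. Leaving out control replicate 1 or 2 gave 2.58 and 4.24 for *Krt15*, 4.34 and 3.17 for *Krt4* and 2.88 and 4.06 for *Krt7*. The interaction was not tested in male-typed cells or in cells without conjunctival keratins. *BC100530*, a stefin family gene with close relatives and so of uncertain counts, was at 5.36, 6.95 and 16.7 in corneal cells and at 21.1, 22.2 and 22.2 in limbal cells. Some of the difference lay on the limbal side. *Wfdc18* was at 0.0399, 0.245 and 0.234 in corneal cells and at 9.75, 18.4 and 7.46 in limbal cells. Its corneal level in *Angpt1*ΔNC thus lay between the controls. *Sgk1*, a glucocorticoid-induced kinase, was at 0.559, 0.750 and 0.590 in corneal cells and at 3.08, 3.93 and 0.982 in limbal cells, and *Rgcc* was at 0.314, 0.349 and 0.498 in corneal cells and at 1.96, 2.16 and 0.595 in limbal cells. *Aqp5* also differed, with a corneal change 2.102 ± 0.39 above the limbal one (edgeR adjusted p = 0.00467), where its limbal levels were only 0.184, 0.0581 and 0.0133. *Cyr61*, *Hbegf* and *Dll1* did not pass this test, and neither did *Krt12*.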

How the data were processed

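Single cells of the dissected iridocorneal angle and limbus were profiled in 3 libraries on the 10x Genomics platform. The authors deposited a matrix of counts (UMIs per gene and cell, 31053 genes) for each library and a table of kept cells with cluster labels. The submitters' processing notes name mm10, Cell Ranger 2.1.1 and Seurat 3.1.3, while the matrix headers give software version 3.0.2. The authors kept cells with at least 200 genes, at least 1000 UMIs and at most 10% mitochondrial UMIs, removed doublets with scDblFinder, and clustered on 5000 variable genes and 20 components at resolution 0.5. No doublet caller was run again.

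Kept barcodes were matched to the matrices by library. The level of a gene is its UMIs per 10,000 UMIs of a cell, averaged over cells. Counts of cluster 5 were summed per library (13752055, 11272930 and 7165719 UMIs) and tested with edgeR 4.0.16 (R 4.3.3) by the quasi-likelihood test, TMM scaling and Benjamini-Hochberg adjustment at 0.05, after edgeR's filter on low counts. The corneal-minus-limbal difference used 6 sums with the library as a term. DESeq2 1.42.0 was an alternative. On simulated counts for the genotype comparison (11365 genes, 200 changed by 1.5 on the log2 scale), 92.5% of changed genes were recovered and 5.13% of calls were false. Smaller changes were not simulated. Changed genes were drawn only from those with higher expected counts, so recovery of low-count genes was not measured. Counts were drawn from the test's own model with the same spread in every library, so a different spread in *Angpt1*ΔNC was not covered. Intervals are exact Clopper-Pearson and cover counting error only. Nothing states which mice entered which library beyond the pooling. The p-values rest on the spread between the control libraries, taken to hold for *Angpt1*ΔNC.

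Named genes were the 10 higher and 10 lower called genes of smallest adjusted p, provided that the log2 change passed 1 in size and the higher group reached 0.5 UMIs per 10,000, the 10 most above and most below the neighbouring clusters, the 10 highest and lowest correlated with *Krt12*, the 10 smallest p of the interaction, called members of the gene lists, and, where under 4 were called, some of the most abundant members. Genes named outside this rule were chosen after their values were seen. Ratios of levels used a pseudocount of 0.1. The members and the lists were chosen with earlier results of these data known. Alternatives were another scaling, no filter, equal numbers of cells, thinning, male-typed cells, cells without a stromal UMI, and each control left out. The set of cells without *Krt4*, *Krt7*, *Krt13* or *Krt19* was added after seeing the data. *Aldoa*, whose symbol is duplicated, was left out. 1 gene of the correlation with *Krt12* is not reported here.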

Additional observations from a re-analysis of the deposited data

Results flagged for a closer look

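These genes differed between corneal and limbal epithelium in their change with genotype, by the interaction term of edgeR's quasi-likelihood test. Values are the corneal minus the limbal log2 change. Keratins made up the largest group, with *Krt19* at 3.94, *Krt4* at 3.92, *Krt7* at 3.61, *Krt15* at 3.45 and *Krt13* at 2.60. *Gphb5*, a hormone subunit gene, stood at 3.26, with levels of 0.0378, 0.0373 and 0.111 UMIs per 10,000 in the corneal cells of control replicate 1, control replicate 2 and *Angpt1*ΔNC and of 0.305, 0.373 and 0.148 in limbal cells. *Aqp5* stood at 2.1, *Wfdc18* at 2.07, *Rgcc* at 2.00, *Sgk1* at 1.59 and *BC100530* at 1.40. Of the leading higher genes, *Ereg* stood at 1.49 and *Slc1a1* at 1.08. *Pglyrp1* stood at -1.26, with limbal levels of 0.497, 0.243 and 3.39, so that it was highest in *Angpt1*ΔNC in both epithelia. All rest on 1 *Angpt1*ΔNC library.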

How the results depend on the processing

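No paired analysis was possible because the labels do not pair a control pool with the *Angpt1*ΔNC pool. Of 253 genes called between genotypes (143 higher, 110 lower), RLE scaling gave 268, DESeq2 201, equal numbers of cells 287 and male-typed cells 242. Of the 253, 160 were also called in male-typed cells, 171 by DESeq2 and 94 without the conjunctival keratin cells below. Without the filter on low counts 1209 were called (613 higher, 596 lower), with cells thinned to 5000 UMIs 116 (61 and 55), without cells holding a stromal UMI 99 (57 and 42), and without cells holding *Krt4*, *Krt7*, *Krt13* or *Krt19*, an alternative chosen after seeing the data, 105 (58 and 47). The 167 interaction calls became 68 with RLE scaling and 296 without the filter.

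Among the list genes called, *Agr2*, *Cldn1*, *Ly6e*, *Muc15*, *Spry2*, *Ptgds* and *Ttr* lost the call after thinning, without stromal UMI cells and without conjunctival keratin cells, *Ly6e*, *Muc15*, *Spry2* and *Muc4* lost it in male-typed cells, and *Cldn1* with DESeq2. *Aldh1a3*, *Clic4*, *Hbegf*, *Fos* and *S100a8* lost it without stromal UMI cells. Of the keratins, *Krt4*, *Krt6b* and *Krt80* lost it after thinning, and *Krt6b* and *Krt13* with equal numbers of cells. *Krt6b*, *Krt15* and *Krt80* lost it without conjunctival keratin cells. The losses of keratin calls in male-typed cells and without stromal UMI cells are given above.

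Directions turned for some genes, and the cause was not tested. Among male-typed cells the log2 change was 0.001272 for *Krt12*, 0.11 for *Slurp1*, 0.55 for *Ddx3y*, 0.15 for *Uty*, -1.59 for *Wfdc18* and -1.74 for *Rgcc*. Of these, only the fall of *Rgcc* was called by edgeR, against a log2 change of 0.19 over all corneal cells. Without control replicate 1 the log2 change was 0.03477 for *Krt12* and 0.046 for *Slurp1*, against -0.1888 and -0.4468 without control replicate 2. Without conjunctival keratin cells it was 0.053 for *Slurp1*, -0.71 for *Wfdc18* and -0.22 for *Muc4*, and without stromal UMI cells -2.11 for *Lce3c* and -0.21 for *Rgcc*. It was -0.10 for *Rgcc* with equal cells and 0.05746 for *Sgk1* after thinning.

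The corneal share of *Angpt1*ΔNC was 70.5% of the control mean over kept cells and 49.0% over clusters 2 to 5. Leaving out a control gave 62.9 to 80.2% for this share, and for the levels 72.7 to 95.5% (*Krt12*), 64.4 to 102.6% (*Slurp1*), 70.6 to 74.3% (*Aldh3a1*) and 40.4 to 56.9% (*Aqp5*). *Aldh3a1* stood at 77.2% by summed UMIs against 72.4%. Thinning to 2000 UMIs moved the median correlation with *Krt12* from 0.648 to 0.567 for the 10 highest genes and from -0.486 to -0.375 for the 10 lowest. With 1 *Angpt1*ΔNC library, biological spread in that group was not measured.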
